A study of Homo sapiens with 18 samples.

Results

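TM4SF1, TM4SF4, TM4SF18 and 7 tetraspanins (TSPAN1, TSPAN8, CD9, CD63, CD81, CD82 and CD151) were followed through 18 RNA-seq libraries of pancreatic ductal adenocarcinoma (PDAC) cells. The 10 genes were chosen by gene symbol from the 40266 symbols of the expression table, with earlier results of these libraries known, so the levels and differences of the members are given as descriptions and carry no p-values. The cells came from 2 human lines, Panc1 and Panc89, and 3 libraries were made of each of the parental cells, a Holoclone and a Paraclone. Panc1, from a primary PDAC, served as the mesenchymal model, and Panc89, from a lymph node metastasis, as the epithelial model. In both lines the Holoclone and the Paraclone cells each descended from a single cell picked for its stable colony shape, compact in Holoclones and loose in Paraclones, so that a difference between them is a difference between 1 clone and another. No drug or gene edit was applied, and all groups grew in the same medium. The 3 libraries of a group were labelled as biological replicates and came from 3 passages. The SDs below thus measure the spread between passages of a cell variant, and the SEs and intervals this spread pooled over all 6 groups. Neither measures the spread between independently derived clones.

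Tetraspanins are small membrane proteins that gather integrins, proteases and adhesion molecules into membrane microdomains, and several of them, CD9, CD63 and CD81 above all, are standard surface markers of extracellular vesicles. TM4SF1 and its relatives have a similar membrane topology but form a separate family. TM4SF1 is known as a surface antigen of carcinoma and endothelial cells that is involved in migration, TSPAN1 and TSPAN8 as tetraspanins of epithelia and their tumours, CD151 as the partner of laminin-binding integrins, and CD82 (KAI1) as a suppressor of metastasis.

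In the GRCh38 annotation (GENCODE 44) TM4SF18 (chr3:149318498-149334414, minus strand), TM4SF1 (chr3:149369022-149377692, minus strand) and TM4SF4 (chr3:149474697-149503394, plus strand) lie side by side within 184.9 kb of chromosome 3. The other members lie apart: TSPAN1 on chromosome 1, CD9, CD63 and TSPAN8 on chromosome 12, and CD151, CD81 and CD82 on chromosome 11. The promoter windows of the 3 neighbours on chromosome 3 are shown because TM4SF1 and TM4SF18 were very unequal between the lines, and that of TM4SF4, low in every library, is set beside them. Each window runs from 250 bases before to 50 bases after the RefSeq start (GRCh38.p14) and is written 5′ to 3′ on the strand of the gene, at chr3:149377600-149377899 for TM4SF1, chr3:149333587-149333886 for TM4SF18 and chr3:149474447-149474746 for TM4SF4. Capitals mark the motif matches.
TM4SF1: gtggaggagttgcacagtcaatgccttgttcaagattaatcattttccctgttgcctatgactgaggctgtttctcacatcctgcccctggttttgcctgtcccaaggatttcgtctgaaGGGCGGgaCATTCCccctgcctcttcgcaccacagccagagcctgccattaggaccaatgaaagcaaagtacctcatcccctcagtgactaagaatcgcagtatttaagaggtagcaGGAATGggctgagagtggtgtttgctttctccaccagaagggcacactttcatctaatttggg
TM4SF18: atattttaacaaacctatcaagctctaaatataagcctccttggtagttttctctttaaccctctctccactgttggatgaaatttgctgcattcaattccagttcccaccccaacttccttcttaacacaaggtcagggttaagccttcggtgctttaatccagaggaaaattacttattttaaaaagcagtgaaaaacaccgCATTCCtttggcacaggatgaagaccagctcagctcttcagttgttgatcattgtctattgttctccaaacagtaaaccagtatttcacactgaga
TM4SF4: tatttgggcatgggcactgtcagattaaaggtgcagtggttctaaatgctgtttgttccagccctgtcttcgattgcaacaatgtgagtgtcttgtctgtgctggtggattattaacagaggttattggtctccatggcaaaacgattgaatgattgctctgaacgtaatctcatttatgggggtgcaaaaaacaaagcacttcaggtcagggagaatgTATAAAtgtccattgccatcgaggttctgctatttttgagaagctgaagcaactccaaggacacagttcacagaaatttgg

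Both strands were searched for GGAATG, which TEAD factors recognise, and for the AP-1 motif TGANTCA. The E-box of the ZEB and SNAI repressors was searched as CACCTG, the GC box by the letters GGGCGG, and the TATA box by the letters TATAAA. The TM4SF1 window held GGAATG on its reverse strand at base −122 and on its own strand at base −13, counted from the start to the motif's 5′-most base on the gene's strand, and a GC box at −130. The TM4SF18 window held GGAATG on the reverse strand at −46, and the TM4SF4 window held TATAAA at −31. None of these matches overlapped another, and the 3 windows contained neither TGANTCA nor CACCTG. Over all 35116 RefSeq promoter windows of this length, 14.0% held GGAATG, 7.71% TGANTCA, 20.6% CACCTG, 45.0% GGGCGG and 11.5% TATAAA. These matches describe the letters of the windows and were not tied to any measurement of binding. By GC content the windows of TM4SF18 (39.3%), TM4SF4 (42.7%) and TM4SF1 (50%) lay below that of CD82 (76.7%), which held 4 GC boxes, while the TSPAN1 window (52.0%) held none of the motifs. RefSeq promoter entries were found for 8 of the 10 members, and CD81 and CD151 had none.

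Levels are given in TPM, the share of a gene among the transcripts of a library after scaling by transcript length, which can be compared between genes, and differences on the log2(TPM + 1) scale of the deposited table. The table keeps no read counts, so the depth of the libraries is unknown and no counting interval can be given. The libraries resembled each other in the number of genes at or above 1 TPM (12932 to 14199) and in the share of mitochondrially encoded RNA (5.62% to 9.44%). The mesenchymal markers VIM (2021 to 5044 TPM in Panc1, at most 0.457 TPM in Panc89) and ZEB1 (12.7 to 18.1 TPM, at most 3.01 TPM) and the epithelial marker CDH1 (at most 3.51 TPM in Panc1, 73.3 to 107 TPM in Panc89) separated the lines in the direction of their labels. The mesenchymal marker FN1 went against them, with at most 0.697 TPM in Panc1 and 0.991 to 23.8 TPM in Panc89. CDH2 overlapped between the lines (1.09 to 16.3 and 2.42 to 11.7 TPM), and the epithelial keratins KRT8, KRT18 and KRT19 were at 183 TPM or more in every library of both lines.

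TM4SF1 was among the most abundant RNAs of Panc1 cells and a low to moderate one in Panc89 cells. In Panc1 it measured 1113, 1279 and 1309 TPM in parental, 1037, 1397 and 942 TPM in Holoclone, and 1862, 1409 and 1187 TPM in Paraclone cells. In Panc89 it measured 12.1, 16.4 and 11.4 TPM in parental, 17.97, 3.71 and 1.19 TPM in Holoclone, and 41.3, 27.8 and 25.3 TPM in Paraclone cells. Every Panc1 library thus lay far above every Panc89 library, and the group means in Panc1 stood at percentiles 99.3 to 99.4 of the 16093 genes tested. Within Panc1 the 3 variants overlapped. Within Panc89 the Paraclone libraries were the highest and did not overlap either other group, whereas the Holoclone libraries ran from below to above the parental ones. The Holoclone group was also the least uniform, with an SD of 1.58 on the log2(TPM + 1) scale against 0.126 to 0.365 in the other 5 groups. In bulk RNA a smaller share of expressing cells and less RNA per cell cannot be told apart.

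TM4SF18 was near 0 in Panc89. Its means were 69.8 ± 10.3 TPM (SD, n = 3) in parental, 62.4 ± 10.8 TPM in Holoclone and 68.9 ± 32.2 TPM in Paraclone cells of Panc1, with all 3 groups overlapping and the highest library, at 105 TPM, being Paraclone replicate 1. The 9 Panc89 libraries held at most 0.178 TPM, and 4 of them were listed at 0. TM4SF1 had its highest level in the same Panc1 Paraclone library. TM4SF4, a member known from liver and pancreas, reached at most 0.407 TPM in any library and was listed at 0 in 12 of 18, so no comparison was made for it.

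**Figure D1:**
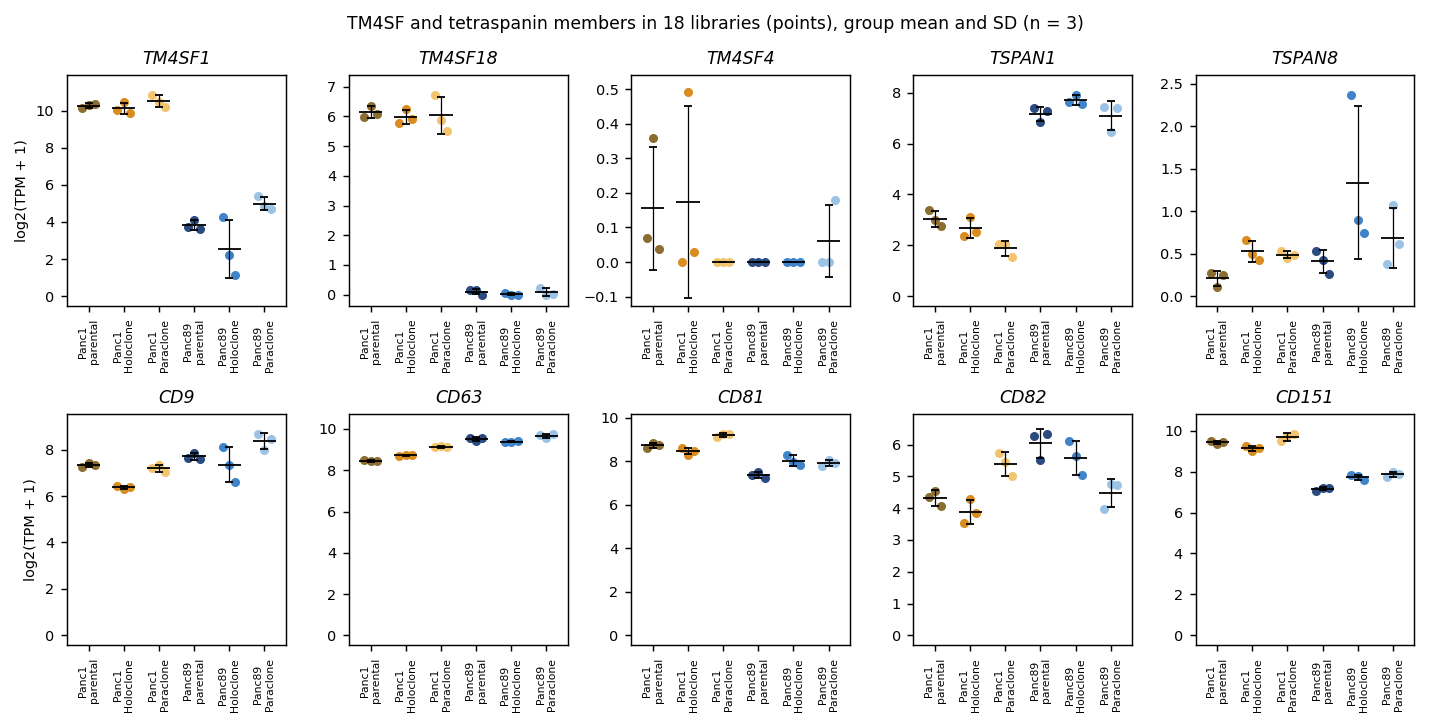
Level of each of the 10 members on the log2(TPM + 1) scale, with a panel and a vertical scale of its own for each gene; points are the 18 libraries, horizontal bars the group means and error bars the SD (n = 3). TM4SF1 and TM4SF18 were high in the Panc1 groups (brown and orange), TSPAN1 and CD63 in the Panc89 groups (blue), and TM4SF4 stayed at or below 0.407 TPM.

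Of the epithelial tetraspanins, TSPAN1 had the reverse distribution. It measured 9.50, 6.87 and 5.80 TPM in parental, 4.10, 7.70 and 4.82 TPM in Holoclone, and 3.11, 3.17 and 1.91 TPM in Paraclone cells of Panc1. In Panc89 it measured 167, 115 and 154 TPM in parental, 199.8, 242 and 189.8 TPM in Holoclone, and 174, 86.1 and 169 TPM in Paraclone cells. All Panc89 libraries lay above all Panc1 libraries. In both lines the 3 Holoclone libraries lay above the 3 Paraclone libraries, while the parental cells overlapped the Holoclone cells in Panc1 and the Paraclone cells in Panc89. TSPAN8, by contrast, was scarce everywhere: 16 of the 18 libraries were under 1 TPM, and the other two were Panc89 Holoclone replicate 1 with 4.17 TPM and Panc89 Paraclone replicate 2 with 1.098 TPM. The other Panc89 Holoclone libraries held 0.855 and 0.675 TPM, so the mean of that group (1.90 ± 1.97 TPM) rests on replicate 1. That library also had the highest number of genes at or above 1 TPM, 14199, and the part of this in its TSPAN8 level was not tested.

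CD9, a tetraspanin of cell adhesion and of the vesicle surface, was lowest in Panc1 Holoclone cells. There it measured 85.3, 76.8 and 83.6 TPM, against 151, 170.2 and 161 TPM in parental and 146, 159 and 131 TPM in Paraclone cells, and the Holoclone libraries overlapped neither. In Panc89 it measured 199.6, 230.1 and 194 TPM in parental, 277, 161 and 95.5 TPM in Holoclone, and 407, 255 and 346 TPM in Paraclone cells. There the Holoclone libraries spread across the parental range and reached into the Paraclone range, and the Paraclone cells lay above the parental cells without overlap.

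CD63, which resides in late endosomes and lysosomes and marks exosomes, was the steadiest member within groups, with an SD of at most 0.0897 on the log2(TPM + 1) scale. Its means were 348 ± 6.16 TPM in parental, 422 ± 9.46 TPM in Holoclone and 563 ± 19.0 TPM in Paraclone cells of Panc1, in that order and with no overlap between neighbours. In Panc89 they were 727 ± 43.7 TPM in parental, 669 ± 13.5 TPM in Holoclone and 817 ± 50.5 TPM in Paraclone cells, where parental and Holoclone cells overlapped and the Paraclone libraries were above both. Its lowest Panc89 library (658 TPM, Holoclone) exceeded its highest Panc1 library (585 TPM, Paraclone).

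CD81, a partner of many immunoglobulin-family and adhesion receptors, and CD151 were both higher in Panc1. CD81 measured 384, 458 and 426 TPM in parental, 384, 312 and 357 TPM in Holoclone, and 545, 606 and 605 TPM in Paraclone cells of Panc1. In Panc89 it measured 163, 179.8 and 146 TPM in parental, 315, 251 and 223 TPM in Holoclone, and 218, 262 and 239.8 TPM in Paraclone cells. The Panc1 Paraclone libraries stood above all others, the Panc89 parental libraries stood below all others, and Panc1 Holoclone and Panc89 Holoclone cells overlapped narrowly. CD151 had means of 688 ± 27.8 TPM in parental, 562 ± 43.1 TPM in Holoclone and 825 ± 104 TPM in Paraclone cells of Panc1. In Panc89 the means were 142 ± 7.06, 212 ± 18.4 and 233 ± 21.3 TPM in the same order, and no Panc89 library reached the Panc1 range. For both genes the Panc89 parental cells were below both of their clones without overlap, by 0.67 (Holoclone) and 0.55 (Paraclone) for CD81 and by 0.57 and 0.71 for CD151.

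CD82 was the member with opposite orders in the lines. In Panc1 it measured 19.2, 22.4 and 15.8 TPM in parental, 10.51, 18.4 and 13.5 TPM in Holoclone, and 52.1, 42.9 and 30.99 TPM in Paraclone cells. In Panc89 it measured 76.0, 44.4 and 79.6 TPM in parental, 67.5, 48.5 and 31.8 TPM in Holoclone, and 14.7, 26.0 and 25.2 TPM in Paraclone cells. In Panc1 the Paraclone libraries were thus the highest and in Panc89 the lowest, each without overlap with the other variants of the line. Parental and Holoclone cells overlapped in both lines. On the log2(TPM + 1) scale, the Panc1 Paraclone mean was 1.08 ± 0.309 (SE) above the parental mean and the Panc89 Paraclone mean was −1.55 ± 0.309 from it.

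The Holoclone cells were then compared with the Paraclone cells of each line, the comparison by which the colony types are set against each other. The paper reports similar colony numbers for the Panc1 clones, each of which formed mainly colonies of its own type. For Panc89 it reports more colonies from the Holoclone than from the Paraclone cells. Group means were compared with limma-trend over all 16093 genes that reached 1 TPM in 3 or more libraries, and an adjusted p under 0.05 is termed a call. The fit pooled the spread of each gene over all 18 libraries, so scatter in 1 group also widened the intervals of the other comparisons. For CD9 the SD on the log2(TPM + 1) scale was 0.762 in Panc89 Holoclone cells, against 0.0792 and 0.136 in Panc1 Holoclone and Paraclone cells. TM4SF1 likewise scattered most in Panc89 Holoclone cells. TM4SF4 and TSPAN8 were not among these genes, leaving 8 of the 10 members. TM4SF18 entered through its Panc1 libraries alone, so its difference between the lines had to be large.

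In Panc1, Holoclone cells had less CD82, CD9, CD81, CD151 and CD63 and more TSPAN1 than Paraclone cells. The difference was −1.51 ± 0.309 (SE) for CD82, a mean of 14.1 against 42.0 TPM, and −0.82 ± 0.263 for CD9. It was −0.74 ± 0.131 for CD81, −0.55 ± 0.109 for CD151 and −0.42 ± 0.0770 for CD63, and none of these groups overlapped. TSPAN1 was higher by 0.79 ± 0.272. TM4SF1 (−0.40, 95% confidence interval −1.48 to 0.69) and TM4SF18 (−0.06, −0.55 to 0.44) were not called, and their intervals leave differences in either direction open. The calls thus comprised 6 of 8 members, 1 higher and 5 lower, where 37.3% of all genes tested were called, 27.4% higher and 9.97% lower. The median difference was −0.48 over the members and 0.19 over all genes. Since the members were picked with such results known, these shares are a description only.

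The calls of CD9 and TSPAN1 were lost in several of the fits that left out 1 library. CD9 was no longer called without Holoclone replicate 2 (−0.77), Holoclone replicate 3 (−0.83), Paraclone replicate 1 (−0.81) or Paraclone replicate 2 (−0.75). TSPAN1 was not called without Holoclone replicate 2 (0.57), Holoclone replicate 3 (0.86) or Paraclone replicate 3 (0.62), nor after upper quartile (0.60) or median-of-ratios (0.57) scaling, nor without the filter on low values (0.79). In a fit of the 2 Panc1 clone groups alone, 6 of 8 members were called, where 44.5% of all genes tested were called.

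In Panc89, Holoclone cells had less TM4SF1, CD9 and CD63 and more CD82 than Paraclone cells. TM4SF1 differed by −2.45 ± 0.509, a mean of 7.62 against 31.4 TPM, and its groups did not overlap. CD9 differed by −1.02 ± 0.263 with overlapping libraries, and CD63 by −0.29 ± 0.0770 without overlap. CD82 was higher by 1.11 ± 0.309, a mean of 49.2 against 21.99 TPM. TSPAN1 was higher in every Holoclone library (0.61, 0.03 to 1.19) but was not called, and without Paraclone replicate 2, its lowest library, the difference was 0.29. CD81 (0.12, −0.16 to 0.40), CD151 (−0.14, −0.37 to 0.09) and TM4SF18 (−0.07, −0.56 to 0.43) were not called and overlapped. The calls comprised 4 of 8 members, 1 higher and 3 lower, where 35.7% of all genes were called, 22.4% higher and 13.3% lower. The median difference was −0.10 over the members and 0.09 over all genes.

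Where limma was fitted to the 2 Panc89 clone groups alone, the differences of these 4 members were −2.45, −1.02, −0.29 and 1.11 as before. In that fit 0 of 7 members tested were called, 4 had an unadjusted p under 0.05, and 23.8% of all genes tested were called. The cause was not tested. Without Holoclone replicate 3, the Holoclone library lowest in both TM4SF1 and CD9, the differences were −1.75 for TM4SF1 and −0.64 for CD9, and without Holoclone replicate 1, the highest in both, they were −3.31 and −1.40. The call of CD82 was lost without Holoclone replicate 1 or without Paraclone replicate 1, with a difference of 0.85 in either case.

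**Figure D2:**
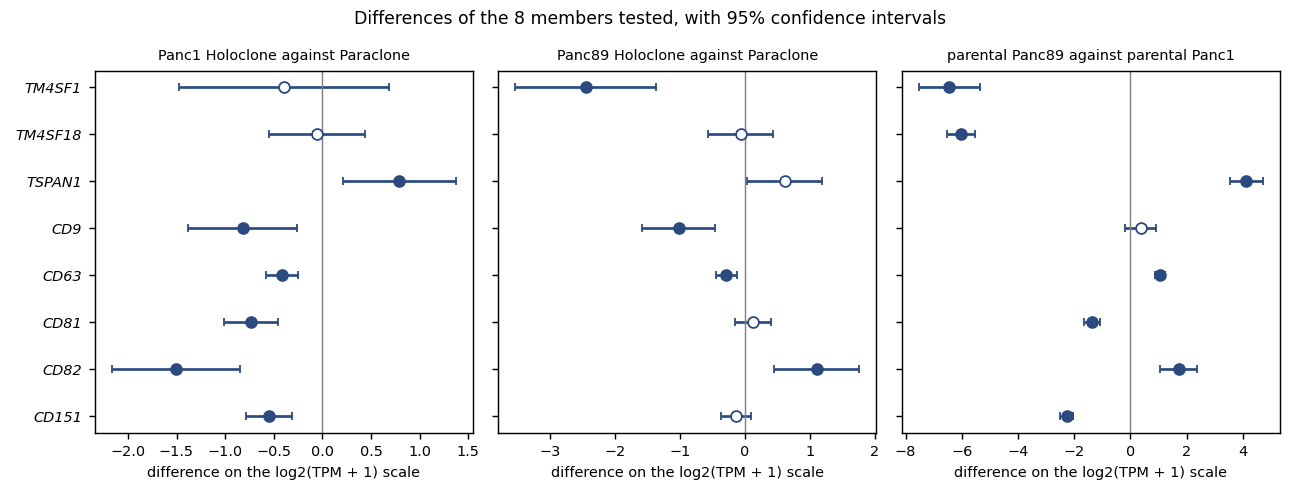
Differences of the 8 members tested on the log2(TPM + 1) scale in 3 comparisons, with 95% confidence intervals from limma-trend; filled circles mark calls, and the 3 horizontal scales differ. CD82 lay at −1.51 in Panc1 and 1.11 in Panc89, CD9 and CD63 were negative in both lines, and TM4SF1 at −2.45 in Panc89 against −0.40 in Panc1.

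Whether the Holoclone to Paraclone difference itself differed between the lines was examined with the interaction term of the same fit. It was called for CD82 (2.61 ± 0.436, Panc89 less Panc1), CD81 (0.86 ± 0.185) and TM4SF1 (−2.05 ± 0.719), which is 3 of 8 members, 2 higher and 1 lower, where 35.1% of all genes were called, 14.8% higher and 20.4% lower. The median was 0.06 over the members and −0.11 over all genes. The interaction was not called for CD9 (−0.20, −0.99 to 0.59), CD63 (0.13, −0.10 to 0.36), TSPAN1 (−0.18, −0.998 to 0.64), TM4SF18 (−0.01, −0.71 to 0.69) and CD151 (0.41, 0.08 to 0.74). For TM4SF1 the call was lost in 7 of the 12 fits that left out 1 library, with values from −2.91 to −1.35. These 7 were the fits without Panc1 Holoclone replicate 1 (−2.10) or 2 (−1.89), Panc1 Paraclone replicate 2 (−2.03) or 3 (−1.91), Panc89 Holoclone replicate 2 (−1.90) or 3 (−1.35), and Panc89 Paraclone replicate 1 (−1.85). It was also lost without the filter on low values and in a fit of the 4 clone groups alone, with a difference of −2.05 in both.

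The parental lines were compared to place the members along the contrast of epithelial and mesenchymal PDAC cells. TM4SF1 differed by −6.45 ± 0.509 in Panc89 against Panc1, a mean of 13.3 against 1234 TPM, and TM4SF18 by −6.03 ± 0.233. CD151 (−2.27 ± 0.109) and CD81 (−1.37 ± 0.131) were also lower in Panc89. TSPAN1 (4.13 ± 0.272, 145 against 7.39 TPM), CD82 (1.72 ± 0.309) and CD63 (1.06 ± 0.0770) were higher in Panc89. CD9 (0.37, −0.19 to 0.93) was not called, although its 3 Panc89 libraries exceeded its 3 Panc1 libraries, and it was called after median-of-ratios scaling (0.61) and in a fit of the parental groups alone (0.37). The calls comprised 7 of 8 members, 3 higher and 4 lower, where 66.0% of all genes were called, 27.5% higher and 38.5% lower, and the median difference was −0.50 over the members and −0.18 over all genes. Without TM4SF18, which entered through Panc1 alone, 6 of 7 were called, 3 higher and 3 lower. The endothelial marker PECAM1 was at 53.2 to 64.7 TPM in parental Panc89 cells and at most 6.90 TPM in the other groups, while VWF did not exceed 0.355 TPM and CDH5 5.07 TPM in any library. Fibroblast markers stayed at or below 1.15 TPM, and of the leukocyte markers CD3E stayed at or below 0.0361 TPM, PTPRC stayed at or below 0.956 TPM, and CD14 stayed at or below 4.86 TPM. The part of these RNAs in the differences of TM4SF1, itself known from endothelial cells, was not tested.

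The scaling of the libraries shifted these comparisons as a whole. On the deposited scale 73.3% of all calls in Panc1 were higher in Holoclone cells, against 51.1% after upper quartile and 47.5% after median-of-ratios scaling. In Panc89 these shares were 62.8%, 52.4% and 49.4%, between the parental lines 41.6%, 48.4% and 52.1%, and for the interaction 42.0%, 51.5% and 51.6%. The median of all genes in Panc1 moved from 0.19 to 0.01 and 0.00. Among the called member differences none changed sign under either scaling.

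Relative to the rest of their family, the members carried most of the tetraspanin RNA. The 33 tetraspanin genes summed to 2517 ± 49.0 TPM in parental, 2185 ± 56.7 TPM in Holoclone and 3105 ± 110 TPM in Paraclone cells of Panc1. In Panc89 the sums were 1914 ± 90.6, 2073 ± 249 and 2299 ± 121 TPM. CD151 was the most abundant in all 3 Panc1 groups, with 27.3%, 25.7% and 26.5% of the sum, and CD63 in all 3 Panc89 groups, with 37.9%, 32.6% and 35.5%. TSPAN1 took 7.56%, 10.2% and 6.16% of the sum in Panc89 but at most 0.294% in Panc1.

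**Figure D3:**
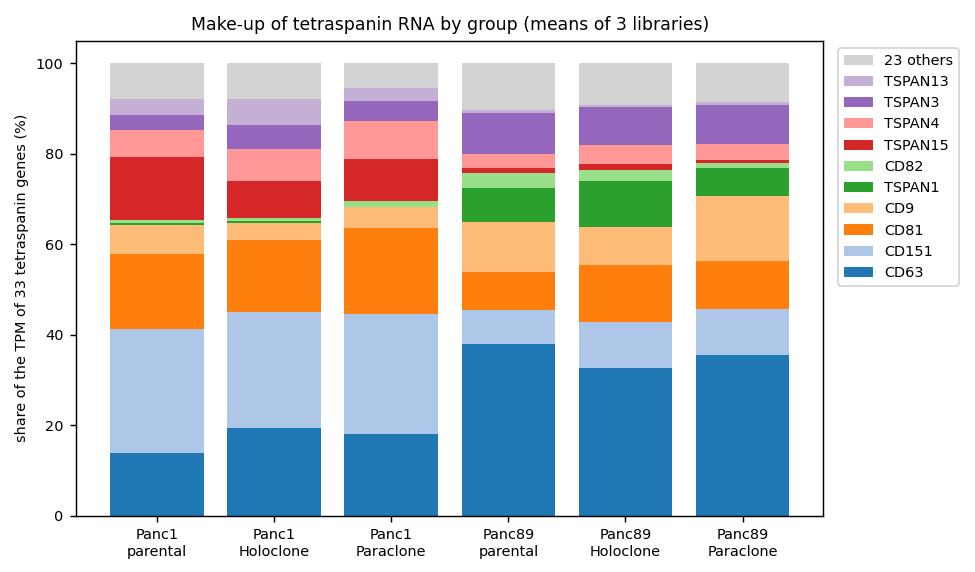
Share of each gene in the summed TPM of 33 tetraspanin genes (vertical axis, percent), as means of 3 libraries per group. CD151 took 25.7% to 27.3% in the Panc1 groups and 7.43% to 10.2% in the Panc89 groups, where CD63 took 32.6% to 37.9%.

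Of the 26 other tetraspanins, 18 could be tested, and TSPAN7, TSPAN11, TSPAN16, TSPAN19, TSPAN32, CD37, CD53 and PRPH2 did not pass the filter. In Panc1, 4 of 18 were called between Holoclone and Paraclone cells, 1 higher and 3 lower, where 37.3% of all genes were called. In Panc89 6 of 18 were called, 3 higher and 3 lower, a share near the 35.7% of all genes. Between the parental lines 15 of 18 were called, 6 higher and 9 lower in Panc89, against 66.0% of all genes. This count includes UPK1A, UPK1B, TSPAN18 and TSPAN33, which passed the filter only through Panc1. It also includes TSPAN2 and TSPAN12, which passed it only through Panc89. TSPAN12 was at most 0.146 TPM in parental Panc1 cells and at most 1.75 TPM in the Panc1 clones. Medians over these 18 genes were 0.11, 0.03 and −0.32, against 0.19, 0.09 and −0.18 over all genes. UPK1B, a uroplakin of urothelial plaques, passed the filter only through Panc1 parental and Paraclone libraries, so its differences had to be large and are given as a description. It had means of 11.7 TPM in parental, 0.0773 TPM in Holoclone and 13.0 TPM in Paraclone cells of Panc1, and at most 0.225 TPM in any Panc89 library. Of the 6 tetraspanins that escort the protease ADAM10, 5 were called between the parental lines, 4 lower and 1 higher in Panc89. Of all genes 66.0% were called there, 38.5% lower. The 4 lower ones include TSPAN33, which was at most 0.964 TPM in Panc89 and entered through Panc1 alone. The higher one was TSPAN14 (0.60, 36.8 against 24.0 TPM, limma-trend adjusted p = 0.002045), and TSPAN10 was not called. Among the lower ones TSPAN5 measured 1.33 against 57.3 TPM (−4.66, adjusted p = 5.002e-11) and TSPAN15 18.1 against 348 TPM (−4.19, adjusted p = 1.071e-10). TSPAN13 was lower there as well (−2.59, adjusted p = 1.746e-07), while TSPAN31 (2.11, adjusted p = 4.941e-06) and TSPAN6 (1.52, adjusted p = 6.09e-06) were higher. No other tetraspanin met the naming rule between the Panc89 clones. TSPAN5, chosen after its values were seen, rose from 0.645 TPM in Paraclone to 4.38 TPM in Holoclone cells of Panc89 (1.63, adjusted p = 4.147e-05). The Holoclone to Paraclone difference itself differed between the lines for 9 of 18 of these genes, 5 higher and 4 lower, where 35.1% of all genes were called. The higher ones included TSPAN15 (1.39, adjusted p = 0.00228) and TSPAN5 (1.12, adjusted p = 0.01239). UPK1B (3.55) is counted among the higher ones too, but it passed the filter only through Panc1, so its interaction is a description. The lower ones included TSPAN14 (−1.07, adjusted p = 0.0008995) and TSPAN13 (−1.02, adjusted p = 0.0327), whose call was lost in 8 of the recomputed fits. TSPAN2 (−1.03) is also counted among them. It was listed at 0 in every Panc1 library and passed the filter only through Panc89. Its interaction is therefore its Panc89 difference alone and is a description.

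TM4SF19, another TM4SF gene of chromosome 3, had the opposite distribution to TM4SF1 between the lines. It measured 34.4 ± 15.0 TPM in parental Panc89 and 0.0468 ± 0.0407 TPM in parental Panc1 cells. It passed the filter only through Panc89 libraries, since no Panc1 library exceeded 0.180 TPM, so this difference of 5.003 on the log2(TPM + 1) scale is a description. Between the Panc89 clones it was, like TM4SF1, lower in Holoclone (45.9 ± 4.64 TPM) than in Paraclone cells (104 ± 41.9 TPM; −1.09, limma-trend adjusted p = 0.005733). The annotation holds a readthrough transcript and an antisense gene that share sequence or position with TM4SF19, so the values of this gene are uncertain. TM4SF5 and TM4SF20 reached at most 0.308 and 0.0418 TPM.

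Partners of the tetraspanins, which are integrins, claudins, immunoglobulin-superfamily proteins and sheddases, were examined as a list of 14 genes, all of them tested. In Panc1, 8 of 14 were called between Holoclone and Paraclone cells, 1 higher and 7 lower, with a median of −0.44, where 37.3% of all genes were called and the median was 0.19. EPCAM, an epithelial adhesion molecule bound in complexes with claudin-7, rose from 1.73 to 29.2 TPM (3.48, limma-trend adjusted p = 1.096e-10). HBEGF, a growth factor precursor that CD9 associates with, fell from 63.9 to 6.81 TPM (−3.07, adjusted p = 0.0001348). The laminin-binding integrin chains ITGB4 (−2.12, adjusted p = 7.618e-05) and ITGA3 (−1.78, adjusted p = 7.352e-07), partners of CD151, fell too, and so did the hyaluronan receptor CD44 (−1.68, adjusted p = 7.936e-06) and CLDN7 (−1.43, adjusted p = 0.0003578). In Panc89, 6 of 14 were called, 4 higher and 2 lower, with a median of −0.02, against 35.7% and 0.09 over all genes. EPCAM was lower here in Holoclone cells (178 against 279 TPM, −0.65, adjusted p = 0.003167), and its interaction was called (−4.13, adjusted p = 1.427e-09). The interaction was called for 9 of the 14, 8 higher and 1 lower, with a median of 0.87, against 35.1% and −0.11 over all genes. CLDN1, a tight junction claudin bound by CD9 and CD81, rose from 74.4 to 260.1 TPM in Holoclone cells of Panc89 (1.80, adjusted p = 0.005762). In Panc1 CLDN1 was not called (−0.47, 39.9 TPM in Holoclone against 54.6 TPM in Paraclone cells).

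Between the parental lines 11 of the 14 partners were called, 9 higher and 2 lower in Panc89, with a median of 0.74, where 66.0% of all genes were called, 27.5% higher and 38.5% lower, and the median was −0.18. ITGB4 rose from 5.77 to 243 TPM (5.16, adjusted p = 8.065e-10 in limma-trend) and EPCAM from 11.2 to 185 TPM (3.95, adjusted p = 2.831e-12). CLDN1 (2.37), HBEGF (2.12), PTGFRN (2.05), a direct partner of CD9 and CD81, and CLDN7 (1.75) were higher as well. CD44 (−2.94, adjusted p = 2.529e-09) and the integrin chain ITGB1 (−1.23, adjusted p = 7.427e-08) were lower. CD151 was thus lower in Panc89, where ITGB4 was higher and ITGB1 lower. ITGA3 (0.32, adjusted p = 0.09674) was not called.

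**Figure D4:**
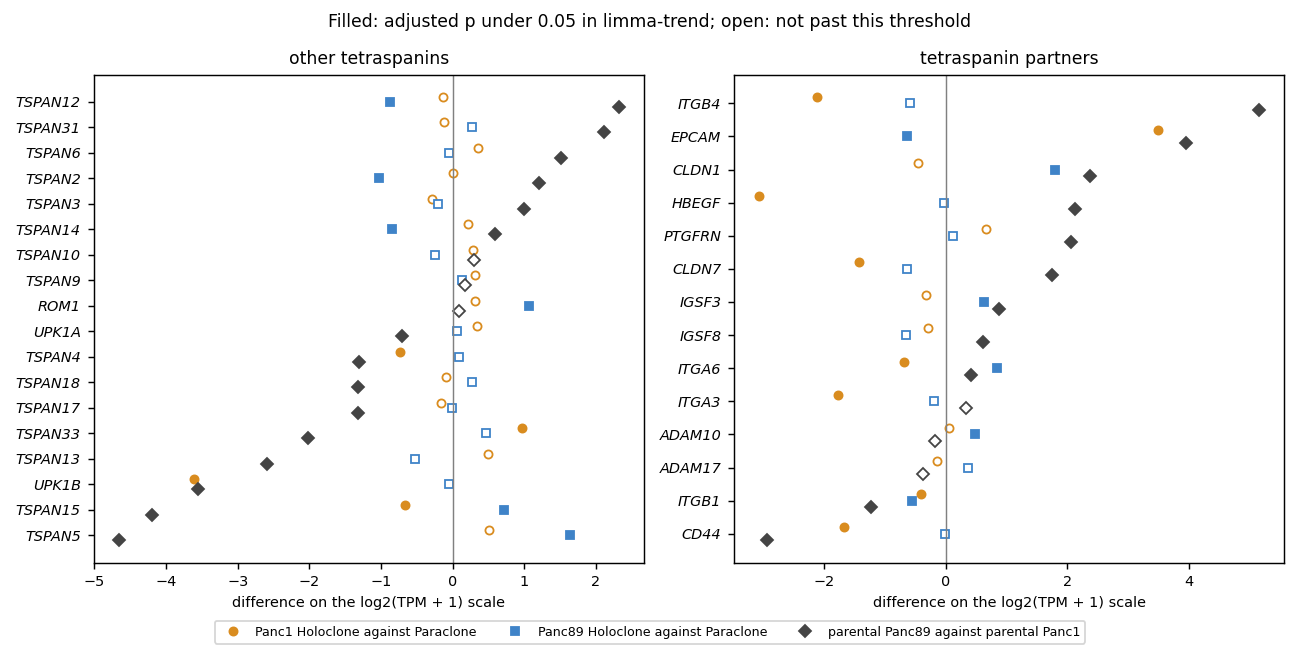
Differences on the log2(TPM + 1) scale for the 18 other tetraspanins and the 14 partners tested, in 3 comparisons; filled symbols mark an adjusted p under 0.05 in limma-trend. Between the parental lines (diamonds) TSPAN5 lay at −4.66 and ITGB4 at 5.16, and between Panc1 clones (circles) UPK1B lay at −3.61 and EPCAM at 3.48.

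Genes of extracellular vesicle formation, a list of 19 with 18 tested (SMPD3 was not), were set beside CD9, CD63 and CD81. Of the 18, 12 were called in Panc1, 9 higher and 3 lower in Holoclone cells, with a median of 0.35, where 37.3% of all genes were called and the median was 0.19, whereas CD9, CD63 and CD81 were all lower there. This count fell to 7, 3 higher and 4 lower, after upper quartile scaling, where 32% of all genes were called. After median-of-ratios scaling it was 6, 2 higher and 4 lower, where 31.6% of all genes were called. In Panc89 6 were called, 3 higher and 3 lower, and between the parental lines 11, 5 higher and 6 lower in Panc89, with medians of 0.08 and −0.06, shares near the 35.7% and 66.0% of all genes called. Between the parental lines the lysosomal membrane protein LAMP2 fell from 117 to 29.4 TPM in Panc89 (−1.96, limma-trend adjusted p = 4.264e-09), LAMP1 rose from 71.8 to 174 TPM (1.26, adjusted p = 1.861e-05) and the endosomal sorting protein STAM2 fell (−1.13, adjusted p = 2.468e-07). RAB27B, a GTPase of vesicle docking chosen after its values were seen, was lower in Holoclone than in Paraclone cells of Panc1 (−2.71, 0.217 against 7.11 TPM, adjusted p = 9.461e-07) and of Panc89 (−1.08, 2.38 against 5.81 TPM, adjusted p = 0.004011).

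How members varied together was described within each line over its 9 libraries, which share 3 groups and the scaling to TPM. TM4SF1 and CD9 followed each other closely in Panc89 (Pearson's r = 0.96, Spearman's rho = 0.95, r = 0.91 without the 2 libraries farthest from the median of TM4SF1), also after group means were subtracted (r = 0.94). In Panc1 they did so weakly (r = 0.42, rho = 0.30, r = 0.18 without the 2 farthest libraries, and 0.09 within groups). CD81 and CD151 varied together in Panc1 (r = 0.91, rho = 0.80, 0.79 without the 2 farthest) and in Panc89 (r = 0.89, rho = 0.88, 0.97 without the 2 farthest), and within groups r was 0.52 and 0.73. The neighbours TM4SF1 and TM4SF18 had r = 0.71 in Panc1 (rho = 0.53), 0.46 without the 2 farthest libraries and 0.88 within groups.

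**Figure D5:**
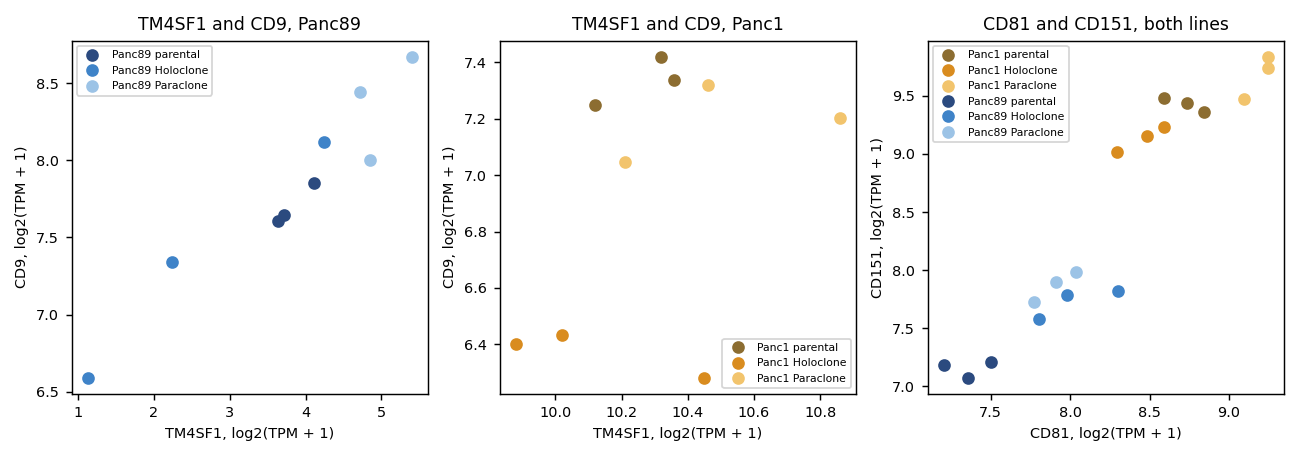
TM4SF1 (horizontal axis) against CD9 (vertical axis) in Panc89 and in Panc1, and CD81 against CD151 in both lines, all on the log2(TPM + 1) scale, with 1 point per library coloured by group. The Panc89 points run along a line from Holoclone replicate 3 (1.19 TPM TM4SF1, 95.5 TPM CD9) to Paraclone replicate 1 (41.3 and 407 TPM), and in Panc1 the Holoclone libraries lie lowest in CD9.

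The genes most like a member were taken by Pearson's r of log2(TPM + 1) over all 18 libraries after the mean of each line was subtracted, among 10915 candidate genes. For TM4SF1 these were HACD3 (r = 0.948), MYPOP (0.935), HECTD3 (0.926), TPM2 (0.925) and SESTD1 (0.920). Their likeness came mostly from the Panc89 libraries, where r was 0.950 to 0.976, against 0.018 to 0.531 in Panc1. For CD9 they were SELENOW (0.912), TFAP2A (0.912), TMEM102 (0.909), ATP2B4 (0.906) and FBXO46 (0.900), with r of at least 0.859 in both lines. For TSPAN1 they were SPIN3 (0.830), MDFI (0.824), CSNK1A1 (0.819), INO80 (0.813) and NXN (0.809).

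The genes around the TM4SF cluster were examined to see how far its difference between the lines extended. Of the 7 nearest tested genes, 6 were called between the parental lines, 1 higher and 5 lower in Panc89, with differences from −2.28 to 3.07, all smaller in size than those of TM4SF1 and TM4SF18, where 66.0% of all genes were called. The higher one was CP, which encodes ceruloplasmin and was chosen after its values were seen (44.4 against 3.496 TPM, 3.07, limma-trend adjusted p = 1.89e-05). WWTR1, which encodes TAZ, a coactivator of TEAD factors, had 67.0 ± 9.86 TPM in parental Panc89 and 250.4 ± 1.33 TPM in parental Panc1 cells (−1.90, limma-trend adjusted p = 5.655e-07). TM4SF1-AS1 had 0.369 ± 0.160 and 5.76 ± 1.64 TPM. No Panc89 library of it exceeded 0.940 TPM, so it passed the filter only through Panc1. Its difference of −2.28, counted among the 5 lower ones, is therefore a description. This antisense gene starts 129 bases upstream of the RefSeq start of TM4SF1, inside the window shown above. It differed between Holoclone and Paraclone cells by 0.91 in Panc1 (limma-trend adjusted p = 0.001017). In Panc89 the difference was −0.61, with both groups under 1 TPM (0.133 against 0.734 TPM), and is a description as well. In Panc1, 5 of the 7 neighbours were called between the clones, 4 higher and 1 lower in Holoclone cells, where 37.3% of all genes were called, and in Panc89 2, 1 higher and 1 lower, where 35.7% were. The lower one in Panc1 was again CP (0.481 against 77.5 TPM, −5.69, adjusted p = 1.19e-07), a difference larger than that of any member between the clones. The libraries were stranded but whether quantification used the strand was not given in the sources used here, so reads of a member and of an overlapping or antisense gene may not be separated. This touches CD63 with CD63-AS1, CD81 with CD81-AS1, CD151 with POLR2L, TSPAN1 with P3R3URF and TSPAN8 with LGR5.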

How the data were processed

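RNA of 18 libraries, 3 for each of 6 groups, was measured. The deposited values are log2(TPM + 1), 1 per gene symbol and library. Per their notes and methods, the authors isolated RNA from 3 passages, made stranded, paired-end mRNA libraries, quantified these with kallisto 0.46.1 against Ensembl GRCh38 and imported scaled TPM with tximport. TPM keep no library total, so depth is unknown. For genes near or under 1 TPM, the added 1 shrinks differences on this scale.

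Groups were taken from the labels. Genes that reached 1 TPM in 3 or more libraries (16093) entered limma 3.58.1 (R 4.3.3, lmFit, eBayes with trend), with 6 group means and no pairing. P-values are two-sided and adjusted by Benjamini-Hochberg over these genes. The script was tested on simulated data. Members and lists were chosen with earlier results of these data known, and the lists were written from general knowledge. From the lists for other tetraspanins and TM4SF genes, partners and vesicle formation, genes were named if called with an absolute log2 difference over 1, a higher group of 10 TPM or more and no overlap, at most the 6 largest per list and comparison. Marker lists cover epithelial, mesenchymal, leukocyte, endothelial and fibroblast cells, of which 1 leukocyte marker is not reported here. Likeness was taken for TM4SF1, TSPAN1 and CD9, among genes of at least 10 TPM in some group. TSPAN8 was not tested. Alternatives were a pseudocount of 0.1, no filter, other scalings, mitochondrial genes removed, the groups compared fitted alone, a replicate block, an absolute log2 difference over 1 and leaving out each library. Recomputing the named genes of the other lists was added after seeing the data.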

Additional observations from a re-analysis of the deposited data

Results flagged for a closer look

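The interaction term of the limma-trend fit was called for 3 of the 8 members tested, a share near the 35.1% of all genes called. For these 3 the difference between Holoclone and Paraclone cells was not the same in both lines, and all 3 are therefore listed. For CD82 the change in Panc89 less that in Panc1 was 2.61 on the log2(TPM + 1) scale, from −1.51 in Panc1 and 1.11 in Panc89, with 3 of 3 Holoclone libraries below all Paraclone libraries in Panc1 and 3 of 3 above them in Panc89. For CD81 it was 0.86, from −0.74 in Panc1 without overlap and 0.12 in Panc89 with overlap. For TM4SF1 it was −2.05, from −0.40 in Panc1 with overlap and −2.45 in Panc89 without overlap, and this call was lost in 7 of 12 fits that left out 1 library, without the filter on low values and in a fit of the 4 clone groups alone. The members were chosen with earlier results of these data known.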

How the results depend on the processing

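The members' differences were recomputed under each alternative. Of the recomputed values 430 kept their status as called or not called, 25 lost the call, 8 gained it and 0 of those called changed direction. Some differences that were not called changed sign, such as that of TM4SF18 between the Panc1 clones (−0.33 to 0.29 over the alternatives). For the other named genes 610 kept direction and call and 8 lost the call, all of these for the interaction of TSPAN13. Of the counts, 198 stayed within 1.5 times the reported one and 10 did not. Requiring an absolute log2 difference over 1 left 1 member in Panc1, 1 other tetraspanin in Panc1 and 3 in Panc89, 1 partner in Panc89, and 1 vesicle gene in Panc1, 1 in Panc89 and 4 between the parental lines. Under the same rule 11.6% of all genes were called in Panc1, 13.2% in Panc89 and 37.4% between the parental lines. For the vesicle list in Panc1 upper quartile scaling gave 7 and median-of-ratios scaling 6, where 32% and 31.6% of all genes were called. Fitting the 2 Panc89 clone groups alone with limma gave 0 members, 4 with an unadjusted p under 0.05; no other tool was run. Calls were also gained for CD9 between the parental lines and for the interaction of CD151, where both scalings gave 0.55. The cause of these changes was not tested.

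Replicate numbers did not pair the libraries: same-numbered libraries of a line had deviations from their group means correlated at −0.318 to 0.190, with a mean of −0.0418 over 18 pairs. With a replicate block within each line, 6, 4, 7 and 3 members were called in the Panc1, Panc89, parental and interaction comparisons, as without it. Since TPM keep no depth, low values such as those of TSPAN8 and TM4SF4 cannot be given a counting error.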
